A study of Mus musculus with 2 samples.

Results

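The genes described here are 39 transcription factors and transcriptional cofactors, listed by symbol for their known roles in the identity of olfactory bulb neurons or of their neighbours. All 39 were found among the 31055 features counted in both libraries of the series. They were compared between projection neurons, GABAergic nuclei and the remaining nuclei, and, where it helps to place them, with 43 paralogues of the same families and 15 further factors named in the regulatory network of the study.

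A transcription factor binds short DNA motifs and sets which genes a cell transcribes, and neurons of a given type usually carry a lasting combination of such factors. In the olfactory bulb the glutamatergic mitral and tufted cells come from the embryonic pallium and send axons to the olfactory cortex, and T-box factors are classic marks of that lineage. The GABAergic granule and periglomerular cells come from migrating neuroblasts, whose generation is known to use homeodomain factors of the Dlx, Meis, Pbx and Pax families together with *Sp8* and *Etv1*. Astrocytes and oligodendrocytes carry other combinations, with the nuclear factor I proteins among the best known in astrocytes.

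The series held 2 single-nucleus libraries from adult mice whose strain is labelled WT, each made from polyA RNA of bulb nuclei with a droplet kit that counts the 3' ends of transcripts. In both, retroAAV-CAG-H2B-GFP, a virus taken up by axon endings that makes a green fluorescent histone, was injected before nuclei were sorted by fluorescence. For 1 library the virus went into the anterior olfactory nucleus (AON), and for the other into several places in the posterior piriform cortex (pPCx). The CAG promoter is not restricted to neurons, the methods describe 1 female C57Bl/6 mouse for the pPCx library, and the animal behind the AON library is known here from its labels only.

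With 1 library per injection site there was no replicate, so no p-value or standard error is given, and injection site, animal and library cannot be told apart. A nucleus was kept with at least 1000 detected genes, which left 102 of 188 barcodes in the AON library and 63 of 74 in the pPCx library, and the libraries shared 0 barcodes. Projection neurons were nuclei with more molecules (UMIs, unique molecular identifiers) of the glutamatergic and mitral cell markers *Slc17a7*, *Slc17a6*, *Tbx21* and *Cdhr1* than of the GABAergic markers *Gad1*, *Gad2* and *Slc32a1*, and GABAergic nuclei had the reverse with at least 3 UMIs. This gave 25 projection neurons, 47 GABAergic nuclei and 30 remaining nuclei in the AON library, and 59, 2 and 2 in the pPCx library. The median nucleus held 38129 UMIs in AON projection neurons, 34306 in pPCx projection neurons, 26129 in AON GABAergic nuclei and 14336 in the AON remaining nuclei. *Slc17a7* was at 210.3 CPM (UMIs per 1000000 UMIs of the class) in AON projection neurons and 194 CPM in pPCx projection neurons, against 1.57 CPM in AON GABAergic nuclei, where *Gad1* was at 581 CPM. The remaining nuclei held 3535 CPM of 7 astrocyte markers and 5859 CPM of 6 oligodendrocyte markers, and are treated below as nuclei rich in glial markers. *Tbx21* is part of the class rule, so its class difference is no independent evidence. The reporter was counted with 4 UMIs in all, so these counts give no check of which nuclei carried the virus.

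Levels below are CPM summed over the nuclei of a class, with an exact 95% Poisson interval, and ratios carry an exact 95% interval, all of which cover counting error only. Genes with at least 10 UMIs over both classes were compared, and past 2-fold (after adding 0.5 UMI to both sums) is the call used. Against a sum of 0 UMIs the fold is given as a lower bound, with 3 UMIs in place of 0. CPM of different factors are not compared with each other, because the counts are not scaled by transcript length or capture.

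The class differences below turn on T-box genes on one side and on Dlx and Meis genes on the other, so the 300 bases around the start of 5 of these genes are shown first. The T-box genes are *Tbr1* (ENSMUSG00000035033, chr2:61802930-61814114, plus strand of GRCm38), *Tbx21* (ENSMUSG00000001444, chr11:97098071-97115331, minus strand) and *Eomes* (ENSMUSG00000032446, chr9:118478212-118486132, plus strand). The homeobox genes are *Dlx1* (ENSMUSG00000041911, chr2:71528113-71533981, plus strand) and *Meis2* (ENSMUSG00000027210, chr2:115863064-116065839, minus strand). Each sequence is from RefSeq on GRCm38.p6, runs 5′ to 3′ on the strand of the gene, and spans 250 bases before to 50 bases after the RefSeq start of the gene. That start lies inside the printed GENCODE span, over 1000 bases from its end, for *Tbr1*, *Dlx1* and *Meis2*. The windows are chr2:61804203-61804502 for *Tbr1*, chr11:97115282-97115581 for *Tbx21*, chr9:118477939-118478238 for *Eomes*, chr2:71529195-71529494 for *Dlx1* and chr2:116064570-116064869 for *Meis2*. Capitals mark matches to 4 motifs, each searched on both strands. TAATTA is a core that homeodomain proteins bind. TGACAG is a core of Meis proteins. AGGTGT is a core of T-box sites. CAGATG is an E-box of the NeuroD kind.
*Tbr1*: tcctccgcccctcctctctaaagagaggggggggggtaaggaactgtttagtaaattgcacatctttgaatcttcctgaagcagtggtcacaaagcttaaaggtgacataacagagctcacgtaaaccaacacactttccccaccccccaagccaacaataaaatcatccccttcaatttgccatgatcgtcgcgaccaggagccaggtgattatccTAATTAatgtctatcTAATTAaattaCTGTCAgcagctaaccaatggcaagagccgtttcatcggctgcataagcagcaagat
*Tbx21*: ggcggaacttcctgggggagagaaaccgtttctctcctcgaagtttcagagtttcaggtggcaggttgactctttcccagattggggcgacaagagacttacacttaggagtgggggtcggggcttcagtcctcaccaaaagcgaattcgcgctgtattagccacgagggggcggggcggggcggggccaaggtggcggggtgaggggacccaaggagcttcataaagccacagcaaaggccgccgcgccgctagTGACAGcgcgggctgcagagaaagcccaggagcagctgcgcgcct
*Eomes*: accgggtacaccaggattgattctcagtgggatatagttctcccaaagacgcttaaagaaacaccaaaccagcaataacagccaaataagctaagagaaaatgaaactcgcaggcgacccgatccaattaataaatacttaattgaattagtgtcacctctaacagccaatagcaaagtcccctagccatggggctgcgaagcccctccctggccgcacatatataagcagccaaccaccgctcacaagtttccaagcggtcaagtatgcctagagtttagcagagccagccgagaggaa
*Dlx1*: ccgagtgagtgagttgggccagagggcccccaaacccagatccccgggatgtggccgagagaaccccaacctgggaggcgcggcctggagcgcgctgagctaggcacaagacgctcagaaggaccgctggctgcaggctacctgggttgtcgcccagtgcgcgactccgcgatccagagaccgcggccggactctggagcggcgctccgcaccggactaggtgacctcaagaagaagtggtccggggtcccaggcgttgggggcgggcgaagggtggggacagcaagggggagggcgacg
*Meis2*: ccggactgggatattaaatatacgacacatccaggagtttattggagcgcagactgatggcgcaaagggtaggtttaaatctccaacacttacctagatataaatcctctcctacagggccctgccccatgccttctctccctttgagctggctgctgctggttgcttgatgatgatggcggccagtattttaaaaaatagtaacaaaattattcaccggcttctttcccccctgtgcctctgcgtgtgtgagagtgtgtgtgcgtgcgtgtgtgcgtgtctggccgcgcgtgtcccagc

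The *Tbr1* window held TAATTA at 2 places and the Meis core at 1, the *Tbx21* window held the Meis core once, and the *Eomes*, *Dlx1* and *Meis2* windows held none of the 4 motifs. Promoter windows were present for 32 of the 39 factors. TAATTA was in 3 of these 32 windows (*Tbr1*, *Uncx* and *Zfp536*) and in 5.31% of 27025 promoters of the same length. The Meis core was in 8 of 32 windows (*Tbr1*, *Tbx21*, *Lhx1*, *Uncx*, *Sp8*, *Foxo1*, *Neurod2* and *Rorb*) against 19.3% of all promoters. The T-box core was in 3 (*Sp8*, *Neurod6* and *Nfia*) against 13.9%, and the E-box in 2 (*Neurod2* and *Nfia*) against 17.2%. TAATTA is its own reverse complement and none of the 4 motifs contains another. These are matches of letters and no more.

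In the AON library, 33 of the 39 factors had enough UMIs to compare projection neurons with GABAergic nuclei. Of these, 9 were past 2-fold higher in projection neurons, as were 16.5% of 12272 genes, and 16 were past 2-fold higher in GABAergic nuclei, as were 16.8% of genes. In either direction 33.3% of genes passed. The other 8 lay within 2-fold. The median log2 ratio of projection neurons over GABAergic nuclei was -0.89 over the 33 factors and -0.045 over all genes compared. Without *Tbx21* the counts were 8 and 16 of 32. The 6 factors with too few UMIs were *Lhx1*, *Lhx5*, *Uncx*, *Vgll2*, *Neurod6* and *Emx1*, all of them at 0 UMIs in GABAergic nuclei.

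**Figure D1:**
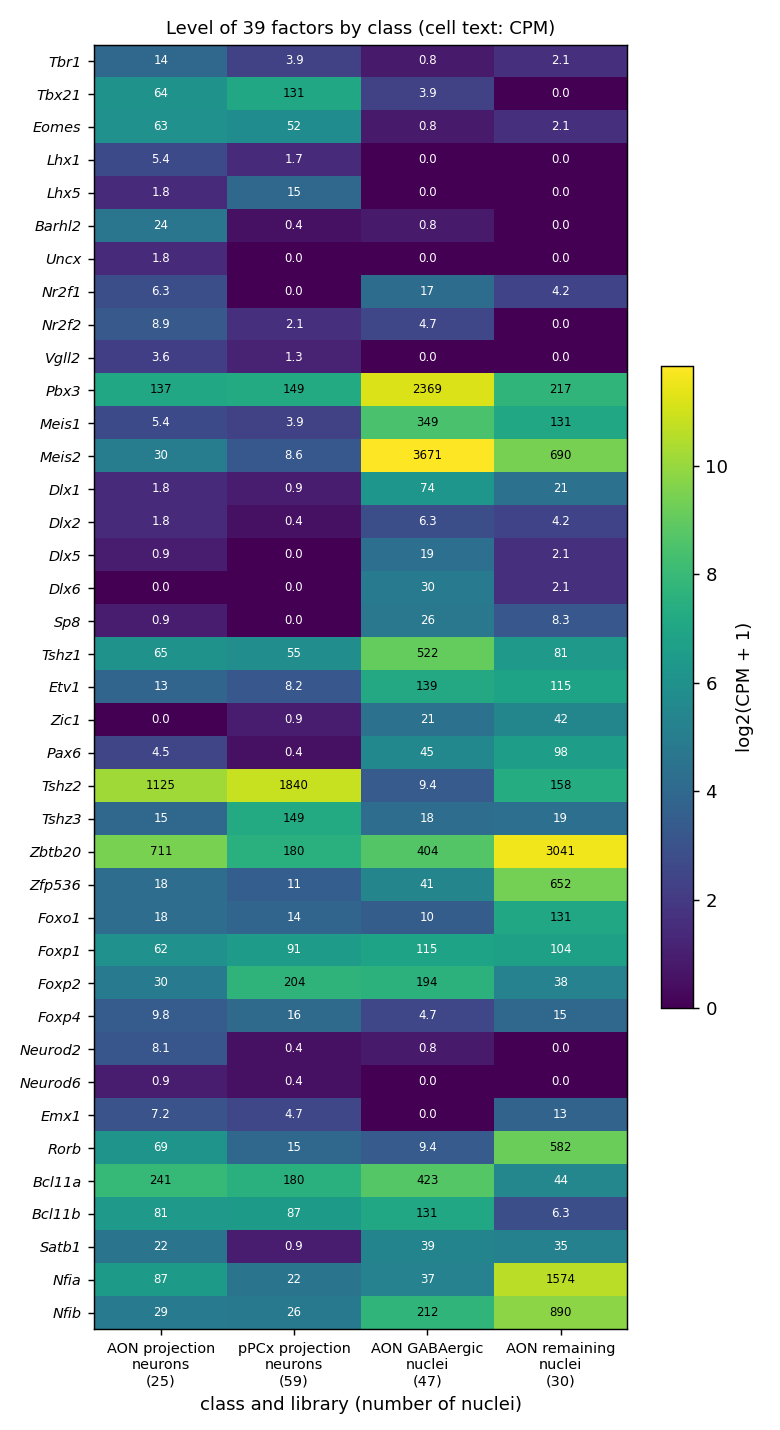
Level of the 39 factors (one per line, grouped by family) in 4 classes of nuclei, with the number of nuclei per class. Colour is log2 of CPM plus 1 and the text in each cell is the CPM. *Meis2* goes from 30.4 CPM in AON projection neurons to 3671 CPM in AON GABAergic nuclei, and *Tshz2* from 1125 to 9.44 CPM.

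The plot of levels by class shows blocks. *Tbx21*, *Eomes* and *Tshz2* were high in both sets of projection neurons and low in GABAergic nuclei. The Meis, Dlx and *Pbx3* entries were high in GABAergic nuclei, and *Nfia*, *Nfib*, *Zbtb20*, *Rorb* and *Zfp536* were highest in the remaining nuclei. *Barhl2* stood out in AON projection neurons, and *Lhx5* and *Tshz3* in pPCx projection neurons.

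Among the T-box factors, *Eomes*, which marks precursors of glutamatergic neurons and stays on in mitral and tufted cells, split the classes without being part of the class rule. *Eomes* was at 62.6 CPM (48.8 to 79.1) in AON projection neurons, 52.4 CPM (43.5 to 62.6) in pPCx projection neurons, 0.787 CPM in AON GABAergic nuclei and 2.08 CPM in the remaining nuclei, the last 2 levels being 1 UMI each. The ratio of AON projection neurons over GABAergic nuclei was 79.6 (13.8 to 3189.6), and the difference between the injection sites, 1.20-fold (0.878 to 1.62), was within counting error. At least 1 *Eomes* UMI was present in 17 of 25 projection neurons from the AON library and in 40 of 59 from the other.

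*Tbx21*, also called T-bet, a late T-box factor of mitral and tufted cells, was at 64.4 CPM (50.4 to 81.1) in AON projection neurons and 131 CPM (116 to 146) in pPCx projection neurons. It was at 3.93 CPM, or 5 UMIs, in AON GABAergic nuclei and at 0 UMIs in the remaining nuclei. In AON projection neurons 61.1% of its UMIs came from the deepest nucleus and only 10 of 25 nuclei had any, while 43 of 59 pPCx projection neurons had at least 1. Both *Tbx21* and *Eomes* were detected in 32 of 59 pPCx projection neurons and in 10 of 25 from the AON library.

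*Tbr1*, a T-box factor of early glutamatergic neurons of the cortex and bulb, rested on few UMIs. It was at 14.3 CPM (8.18 to 23.3; 16 UMIs in 6 nuclei) in AON projection neurons and 3.87 CPM (9 UMIs in 8 nuclei) in pPCx projection neurons, with 1 UMI each in GABAergic and remaining nuclei of the AON library. The ratio over GABAergic nuclei was 18.2 (2.83 to 763) for AON projection neurons. For pPCx projection neurons it was 4.91 (0.681 to 215), an interval that includes 1.

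*Tshz2*, a teashirt zinc finger protein that represses transcription (ENSMUSG00000047907, chr2:169633013-170071816, plus strand), had the largest ratio of projection neurons over GABAergic nuclei among the factors compared, in both sets. It was at 1125 CPM (1064 to 1189) in AON projection neurons and 1839.9 CPM (1785 to 1896) in pPCx projection neurons, against 9.44 CPM (12 UMIs in 7 of 47 nuclei) in AON GABAergic nuclei. The ratios were 119 (68.0 to 231) and 195 (111 to 378). In single pPCx projection neurons it ran from 469 CPM through a median of 1776 to 3281 CPM, so every one of the 59 nuclei carried it. AON projection neurons ran from 0 through 879.8 to 12168 CPM, 4 of the 25 had no UMI, and 35.7% of the UMIs came from the deepest nucleus. After each nucleus was thinned to 5000 UMIs, a *Tshz2* UMI was kept in 59 of 59 pPCx projection neurons, 16 of 22 AON projection neurons and 2 of 47 GABAergic nuclei.

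**Figure D2:**
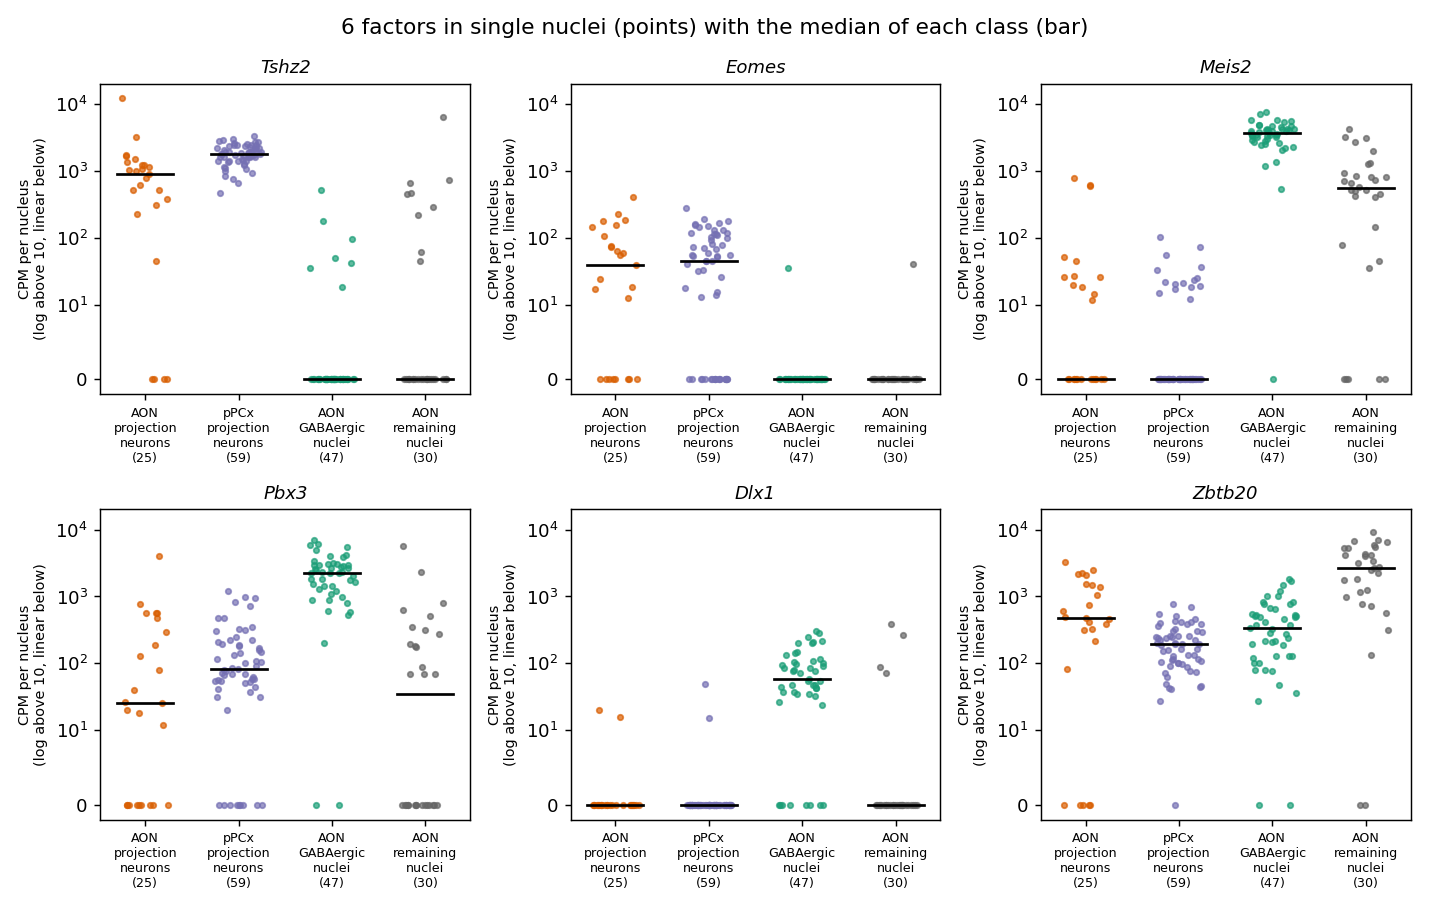
CPM of 6 factors in single nuclei of 4 classes (points, spread sideways at random), with the median of each class as a bar. The vertical axis is logarithmic above 10 CPM and linear below. *Tshz2* is at or above 469 CPM in all 59 pPCx projection neurons, and the median of *Meis2* is 0 CPM in both sets of projection neurons and 3600.5 CPM in GABAergic nuclei, with a few nuclei of each class overlapping.

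The plot of single nuclei shows that *Tshz2* in projection neurons, and *Meis2* and *Pbx3* in GABAergic nuclei, were carried by most nuclei, while *Eomes* and *Dlx1* were read as a few UMIs per nucleus. *Zbtb20* was spread over all 4 classes.

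The LIM, Bar and Unc homeobox genes, which specify neuron subtypes in many brain regions, were counted almost solely in projection neurons. Their summed level was 33.1 CPM in AON and 17.2 CPM in pPCx projection neurons, 0.787 CPM in AON GABAergic nuclei and 0 UMIs in the remaining nuclei. *Barhl2*, a Bar-class repressor (chr5:106452523-106458166, minus strand), supplied most of the AON sum with 24.2 CPM (15.9 to 35.2), and its 27 UMIs were in 8 nuclei holding 1 to 7 each, a ratio of 30.7 (5.06 to 1258) over the 1 UMI in GABAergic nuclei. *Lhx5* supplied most of the pPCx sum with 15.0 CPM (10.5 to 20.9; 35 UMIs in 19 nuclei). *Lhx1* had 6 UMIs in 2 AON and 4 UMIs in 1 pPCx projection neuron, and *Uncx* had 2 UMIs, both in AON projection neurons. *Lhx1*, *Lhx5* and *Uncx* had 0 UMIs in AON GABAergic nuclei, where 3 UMIs would be 2.36 CPM.

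The TALE homeodomain proteins, which bind DNA together with Hox and other factors and are known from the making of bulb interneurons, showed the reverse pattern. Together *Pbx3*, *Meis1* and *Meis2* were at 6389 CPM in AON GABAergic nuclei, 1038 CPM in the remaining nuclei, 173 CPM in AON and 162 CPM in pPCx projection neurons.

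*Meis2* was at 3671 CPM (3567 to 3778) in AON GABAergic nuclei, in 46 of 47 of them, against 30.4 CPM (21.1 to 42.5) in AON and 8.59 CPM (20 UMIs in 15 nuclei) in pPCx projection neurons. The GABAergic level was 121 times (86.2 to 174) that of AON and 427 times (276 to 700.4) that of pPCx projection neurons. Thinned to 5000 UMIs, 46 of 47 GABAergic nuclei kept a UMI, against 3 of 22 AON and 2 of 59 pPCx projection neurons, and 21 of 28 remaining nuclei. *Meis1* was at 349 CPM (318 to 383) in GABAergic nuclei and at 5.37 CPM and 3.87 CPM in AON and pPCx projection neurons, ratios of 65.1 (29.7 to 178) and 90.4 (47.2 to 199). *Pbx3* was at 2369 CPM (2285 to 2455) in GABAergic nuclei, 17.3 times (14.7 to 20.5) its 137 CPM in AON projection neurons, but unlike the Meis genes it was detected in most projection neurons, 16 of 25 and 50 of 59. *Meis2* was in 46 and *Pbx3* in 45 of 47 GABAergic nuclei, and both were found in 45.

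The Dlx homeodomain factors, which specify GABAergic neurons of the forebrain, were low in counts but clear in direction. Their summed level was 129 CPM in AON GABAergic nuclei, 29.2 CPM in the remaining nuclei, 4.47 CPM in AON and 1.29 CPM in pPCx projection neurons. *Dlx1* was at 73.9 CPM (59.8 to 90.5; 94 UMIs in 39 of 47 nuclei) in GABAergic nuclei against 2 UMIs in each set of projection neurons, which gave 41.3-fold (11.1 to 346) and 86.1-fold (23.2 to 721). *Dlx6* had 38 GABAergic UMIs and 0 in projection neurons, at least 11.1-fold higher than in AON and at least 23.2-fold higher than in pPCx projection neurons. *Dlx5* had 24 UMIs in 21 GABAergic nuclei and 1 UMI in AON projection neurons, a ratio of 21.1 (3.44 to 868). *Dlx2* had 8 GABAergic UMIs and 2 in AON projection neurons, and its ratio of 3.52 (0.702 to 34.0) was within counting error. At least 1 Dlx UMI was found in 42 of 47 GABAergic nuclei, 5 of 25 AON projection neurons and 3 of 59 pPCx projection neurons. *Dlx1* overlaps the antisense gene *Dlx1as*.

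Among the other factors of GABAergic interneurons, *Tshz1*, a teashirt relative of *Tshz2* known from the migration of bulb neuroblasts, had the most UMIs. It was at 522 CPM in GABAergic nuclei (663 UMIs in 42 of 47), 65.3 CPM in AON and 55.0 CPM in pPCx projection neurons, with GABAergic ratios of 7.98 (6.26 to 10.3) over the AON set and 9.49 (7.84 to 11.6) over the pPCx set, the reverse of *Tshz2*. *Sp8*, a zinc finger factor of interneurons, had 33 UMIs in 19 GABAergic nuclei and 1 UMI in AON projection neurons, a ratio of 29.0 (4.86 to 1180.1). *Etv1*, an Ets factor, was at 139 CPM (177 UMIs) in GABAergic nuclei and 13.4 CPM in AON projection neurons, a ratio of 10.4 (6.12 to 18.9), and 8 of its 15 UMIs in AON projection neurons were in 3 nuclei rich in glial markers, described below. *Etv1* was not particular to GABAergic nuclei. In the remaining nuclei it was at 115 CPM (55 UMIs), 8.54-fold (4.76 to 16.3) above AON projection neurons.

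*Zic1* and *Pax6* were higher in GABAergic nuclei than in projection neurons, and the summed level of each was higher still in the remaining nuclei, though not past 2-fold for *Zic1*. *Zic1*, a zinc finger factor of septal lineages, was at 21.2 CPM (27 UMIs in 9 nuclei) in GABAergic nuclei, 0 UMIs in AON projection neurons (at least 7.91-fold), and 41.7 CPM (20 UMIs) in the remaining nuclei. Of these 20 UMIs, 8 were in 1 nucleus with only 7 astrocyte marker UMIs. That nucleus also held 36 UMIs of *Meis2*, 11 of *Bcl11a* and 1 each of *Dlx1*, *Dlx2* and *Dlx6*. *Pax6*, a paired-box factor of neural progenitors and dopaminergic periglomerular cells, was at 44.8 CPM (57 UMIs in 15 nuclei) in GABAergic nuclei, 4.47 CPM in AON projection neurons (5 UMIs) and 98.0 CPM in the remaining nuclei. The GABAergic excess of *Pax6* was 10.0-fold (4.05 to 32.0) over AON and 104-fold (18.0 to 4195) over pPCx projection neurons, where 1 UMI was counted. *Etv1* was found together with *Th*, the enzyme that starts dopamine synthesis, in 11 of 47 GABAergic nuclei, and *Pax6* with *Th* in 7. Of the 47, *Etv1* was in 19, *Pax6* in 15 and *Th* in 17, most of the last with 1 *Th* UMI. Whether these overlaps exceed what such shares give was not tested.

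The pPCx library held only 2 GABAergic nuclei, and they carried some of these factors, with 118 UMIs of *Meis2* (1978 CPM), 40 of *Pbx3*, 28 of *Tshz1*, 24 of *Meis1*, 2 of *Dlx1*, 2 of *Etv1*, and 1 each of *Dlx6* and *Sp8*. *Dlx5*, *Zic1*, *Pax6* and *Tshz2* had 0 UMIs there. Set against the AON GABAergic nuclei, which are from another library, pPCx projection neurons had 8 of 32 factors past 2-fold higher (19.6% of 13938 genes) and 18 past 2-fold lower (14.8%), with 34.5% of genes past it in either direction. The median log2 ratio was -1.20 over the factors and 0.064 over all genes. *Dlx2* and *Barhl2* were among the 7 factors with too few UMIs, with *Lhx1*, *Uncx*, *Vgll2*, *Neurod2* and *Neurod6*. Besides those above, *Lhx5* was at least 6.37-fold and *Tshz3* 8.26-fold (5.42 to 13.2) higher in pPCx projection neurons. *Satb1*, at 0.859 CPM there against 39.3 CPM in GABAergic nuclei, was lower by a factor of 45.8 (12.03 to 389).

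The COUP receptors *Nr2f1* and *Nr2f2*, orphan nuclear receptors that pattern the cortex, and *Vgll2*, a cofactor of TEAD proteins, were counted with few UMIs in every class. *Nr2f1* was at 17.3 CPM (22 UMIs in 8 nuclei) in GABAergic nuclei, 6.26 CPM (7 UMIs) in AON projection neurons, 4.17 CPM in the remaining nuclei and 0 UMIs in pPCx projection neurons, which put GABAergic nuclei at 2.76-fold (1.14 to 7.66) over AON and at least 13.4-fold over pPCx projection neurons. *Nr2f2* had 10 UMIs in 3 AON projection neurons, 5 in pPCx projection neurons, 6 in GABAergic and 0 in the remaining nuclei. *Vgll2* had 4 UMIs in 1 AON and 3 UMIs in 2 pPCx projection neurons, and 0 elsewhere.

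The cortical excitatory factors *Neurod2*, *Neurod6* and *Emx1*, basic helix-loop-helix and homeodomain proteins of cortical glutamatergic neurons, were also counted with few UMIs. *Neurod2* had 9 UMIs in 4 AON projection neurons and 1 UMI each in pPCx projection neurons and GABAergic nuclei, *Neurod6* had 1 UMI in each set of projection neurons, and *Emx1* had 8 and 11 UMIs there and 0 in GABAergic nuclei. The ratio of *Neurod2* in AON projection neurons over GABAergic nuclei was 10.2 (1.42 to 449), with 6 of the 9 UMIs in 1 nucleus. *Emx1* was at 12.5 CPM, or 6 UMIs, in the remaining nuclei, and 27.3% of its UMIs in pPCx projection neurons came from the deepest nucleus.

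The forkhead factor *Foxp1* and the layer factors *Bcl11a* and *Bcl11b* were counted in every neuron class. *Foxp1*, a forkhead repressor, was at 61.7 CPM in AON projection neurons, 91.5 CPM in pPCx projection neurons, 115 CPM in GABAergic nuclei and 104 CPM in the remaining nuclei, and all ratios between them were under 2-fold. *Bcl11b* and *Bcl11a*, zinc finger repressors known as Ctip2 and Ctip1, were highest in GABAergic nuclei. *Bcl11b* was at 80.5, 86.8 and 131 CPM and *Bcl11a* at 241, 179.5 and 423 CPM in AON projection neurons, pPCx projection neurons and GABAergic nuclei. *Bcl11a* was 2.36-fold (2.07 to 2.69) higher in GABAergic nuclei than in pPCx projection neurons, and the other neuronal ratios were within 2-fold. In the remaining nuclei *Bcl11b* had 3 UMIs and *Bcl11a* was at 43.8 CPM, lower than in GABAergic nuclei by 21.01-fold (7.07 to 103) and 9.67-fold (6.26 to 15.7). *Foxp4*, a relative of *Foxp1*, had 11 UMIs in AON projection neurons, 45.5% of them in the deepest nucleus, and its 2.09-fold excess (0.707 to 6.87) over GABAergic nuclei was within counting error and turned to a log2 ratio of -0.91 with nuclei weighted equally.

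*Foxp2*, a forkhead repressor known from vocal learning and from projection neurons of many brain regions, did not follow the classes. It was at 194 CPM in GABAergic nuclei and 204 CPM in pPCx projection neurons, a ratio of 1.05 (0.900 to 1.23) for pPCx, yet at 29.5 CPM in AON projection neurons, 6.58-fold (4.56 to 9.77) below GABAergic nuclei. The GABAergic UMIs were uneven, with 32.8% of 247 in 1 nucleus, and in the pPCx library 1 of the 2 GABAergic nuclei held 118 *Foxp2* UMIs.

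*Nfia*, *Nfib*, *Zbtb20*, *Rorb*, *Zfp536* and *Foxo1* were higher in the remaining nuclei than in either neuron class of the AON library. AON projection neurons had 8 of 28 factors past 2-fold higher than the remaining nuclei (18.5% of 11312 genes) and 12 past 2-fold lower (25.2%), and GABAergic nuclei had 12 of 27 higher (18.7% of 11538 genes) and 9 lower (23.2%). In either direction 43.7% and 41.9% of genes were past 2-fold. *Nfia* and *Nfib*, nuclear factor I proteins that drive astrocyte development, were at 1574 and 890.1 CPM in the remaining nuclei against 86.8 and 28.6 CPM in AON projection neurons, ratios of 18.1 (14.7 to 22.6) and 31.1 (21.7 to 46.0). *Nfia* was at 37.0 CPM in GABAergic nuclei, whereas *Nfib* was at 212 CPM there, in 27 of 47 nuclei, and 7.39-fold (5.11 to 11.02) above AON projection neurons. *Zbtb20*, a BTB zinc finger repressor of hippocampal neurons and astrocytes, was at 3041 CPM (2887 to 3201) in the remaining nuclei, 4.27-fold (3.92 to 4.67) above AON projection neurons. *Rorb*, a retinoid-related orphan receptor of cortical layers and astrocytes, was at 582 CPM there, 8.44-fold (6.54 to 11.01) above AON projection neurons and 61.6-fold (34.7 to 121) above GABAergic nuclei. *Foxo1*, a forkhead factor controlled by insulin signalling, was at 131 CPM in the remaining nuclei and at 17.9, 13.7 and 10.2 CPM in AON projection neurons, pPCx projection neurons and GABAergic nuclei.

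Splitting the remaining nuclei by which glial list had more UMIs gave 18 on the astrocyte side, 9 on the oligodendrocyte side and 3 others. *Zbtb20* was at 4581 CPM on the astrocyte side and 929 CPM on the oligodendrocyte side, and *Nfia* at 2531 and 358 CPM. *Rorb* and *Pax6* were at 973 CPM (859.8 to 1098) and 173 CPM (127 to 230) on the astrocyte side and had 0 UMIs on the oligodendrocyte side. *Zfp536*, a zinc finger repressor of neuronal and oligodendrocyte differentiation, was the reverse, at 25.7 CPM (10.3 to 53.0) on the astrocyte side and 1586 CPM on the oligodendrocyte side, with 41.8% of the latter in 1 nucleus. In neurons it was at 17.9, 10.7 and 40.9 CPM (AON and pPCx projection neurons and GABAergic nuclei), the GABAergic UMIs lying in 6 of 47 nuclei. *Meis1* also leaned to the oligodendrocyte side with 244 against 66.1 CPM, while *Meis2* leaned to the astrocyte side with 863 against 114 CPM. Of the 21 *Meis2* UMIs on the oligodendrocyte side, 15 were in 1 nucleus with 4 oligodendrocyte marker UMIs and 11 of *Tshz1*. On the astrocyte side, 36 *Meis2* UMIs were in 1 nucleus with 7 astrocyte marker UMIs and 1 each of *Dlx1*, *Dlx2* and *Dlx6*. Another nucleus there, with 20 astrocyte marker UMIs, held 21 of *Meis2*. The 3 other nuclei held 75 UMIs of *Meis2*, 53 of *Pbx3*, 31 of *Tshz2* and 6 of *Dlx1*, so part of the neuronal counts in the remaining nuclei lay there.

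**Figure D3:**
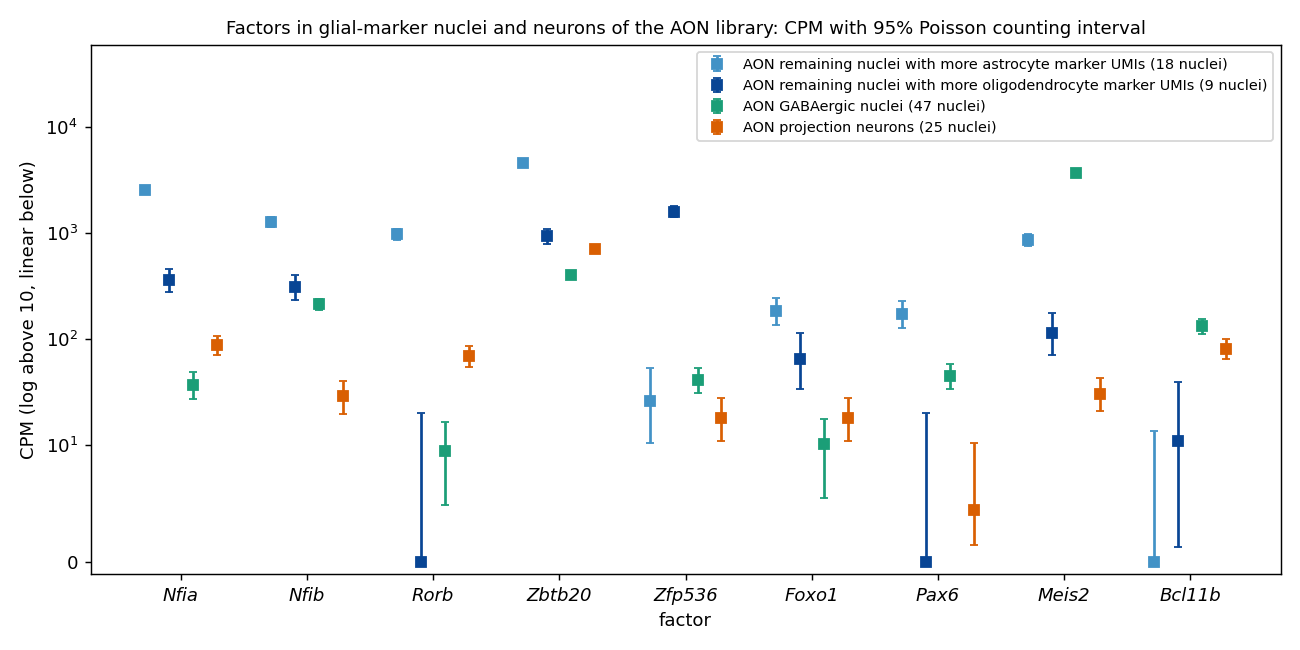
CPM of selected factors in the AON library, with 95% Poisson counting intervals as bars, for the remaining nuclei with more astrocyte marker UMIs, those with more oligodendrocyte marker UMIs, GABAergic nuclei and projection neurons. The vertical axis is logarithmic above 10 CPM and linear below. *Rorb* and *Pax6* are at 0 on the oligodendrocyte side and at 973 and 173 CPM on the astrocyte side.

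The plot of glial factors makes the division visible, with *Zfp536* high on the oligodendrocyte side and *Rorb*, *Pax6*, *Nfia* and *Zbtb20* high on the astrocyte side. The astrocyte list summed to 259.5 CPM in AON projection neurons, 206 CPM in pPCx projection neurons and 129 CPM in GABAergic nuclei, and the oligodendrocyte list to 110.1, 57.1 and 33.8 CPM. Projection neurons of both libraries thus held some glial marker RNA, and 3 AON projection neurons had at least 10 times as many glial as excitatory marker UMIs, with 41 to 85 glial UMIs against 1 excitatory UMI in each. These 3 nuclei, in the class by that 1 UMI, had 3.11% of the UMIs of their class. They held 71.1% of its *Nfia*, 75% of its *Nfib*, 70% of its *Nr2f2*, 55% of its *Foxo1* and 50% of its *Meis2*. All 5 UMIs of its *Pax6* and 22 of its 77 UMIs of *Rorb* were also in these 3 nuclei. The 2.35-fold excess of *Nfia* (1.64 to 3.40) over GABAergic nuclei turned to a log2 ratio of -0.51 without them, an alternative chosen after seeing the data.

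Between the 2 sets of projection neurons, 28 factors could be compared, and 10 were past 2-fold higher in the AON library (8.51% of 13677 genes) and 4 past 2-fold higher in the pPCx library (12.4%), with 20.9% of genes past it either way. The median log2 ratio of AON over pPCx was 0.47 over the factors and -0.063 over all genes. *Xist*, made from the inactive X chromosome of female cells, was at 749 CPM in pPCx projection neurons and at 0 UMIs in AON projection neurons, so sex and injection site cannot be told apart. The Dlx genes, *Sp8*, *Zic1* and *Pax6* were among the 11 factors with too few UMIs in both sets.

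*Rorb* and *Satb1* were higher in AON projection neurons. In projection neurons *Rorb* was at 68.9 CPM (77 UMIs in 14 of 25 nuclei) against 15.0 CPM (35 UMIs in 19 of 59), a ratio of 4.58 (3.04 to 7.04). Of the 77 UMIs, 22 were in the 3 nuclei rich in glial markers, which held 3.11% of the UMIs of the class. *Satb1*, a chromatin organiser of cortical interneurons and other cells, was at 22.4 CPM (25 UMIs in 10 nuclei) against 2 UMIs, a ratio of 26.0 (6.49 to 227). *Neurod2* was at 8.05 CPM against 1 UMI, a ratio of 18.8 (2.60 to 822), with 6 of its 9 AON UMIs in 1 nucleus. *Tbr1* was 3.70-fold (1.54 to 9.51) and *Zbtb20* 3.94-fold (3.50 to 4.45) higher, the latter at 711 CPM (663 to 763; in 20 of 25 nuclei) against 180.4 CPM (in 58 of 59). *Lhx1*, at 6 against 4 UMIs, gave 3.13-fold (0.741 to 15.1), within counting error.

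*Barhl2* had 27 UMIs in AON and 1 UMI in pPCx projection neurons. Its 8 AON nuclei all carried *Zbtb20*, 5 carried *Satb1* and 0 carried *Ebf1*, an early B-cell factor that marks a subset of mitral cells. Of all 25 AON projection neurons, 20 carried *Zbtb20*, 10 *Satb1* and 4 *Ebf1*. The 8 *Barhl2* nuclei were among the deeper ones, with at least 22157 UMIs each. Whether the overlaps differ from these shares was not tested. *Nfia*, *Meis2* and *Nr2f2* were also higher in AON projection neurons, by 3.89-fold (2.75 to 5.55), 3.54-fold (1.98 to 6.49) and 4.17-fold (1.30 to 15.5). Without the 3 nuclei rich in glial markers the log2 ratio was 0.22 for *Nfia* and 0.88 for *Meis2*, both within 2-fold, and 7 of the 10 *Nr2f2* UMIs were in those nuclei.

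The 4 factors higher in pPCx projection neurons were *Tbx21*, *Lhx5*, *Tshz3* and *Foxp2*. *Tshz3*, the third teashirt gene, was at 149 CPM (348 UMIs in 42 of 59 nuclei) against 15.2 CPM (17 UMIs in 7 of 25), a ratio of 9.82 (6.05 to 17.1). *Foxp2* was at 204 CPM against 29.5 CPM, a ratio of 6.92 (4.86 to 10.2), with a UMI in 56 of 59 pPCx and 13 of 25 AON nuclei. *Lhx5* was 8.40-fold (2.16 to 72.1) higher. *Tbx21* was 2.03-fold (1.56 to 2.66) higher, but its log2 ratio of AON over pPCx went from -1.01 to -1.98 once nuclei deeper than 3 times their class median, 1 in each set, were left out, and to -0.95 with a minimum of 3 excitatory marker UMIs.

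The remaining 14 factors compared lay within 2-fold, and several intervals were narrow. *Pbx3* differed by 1.09-fold (0.900 to 1.33), *Bcl11b* by 1.08-fold (0.836 to 1.40), *Nfib* by 1.09-fold (0.689 to 1.70) and *Eomes* by the 1.20-fold given above. *Tshz2* was 1.64-fold (1.54 to 1.74) higher in pPCx and *Bcl11a* 1.34-fold (1.15 to 1.57) higher in AON projection neurons, both beyond counting error but not past 2-fold.

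**Figure D4:**
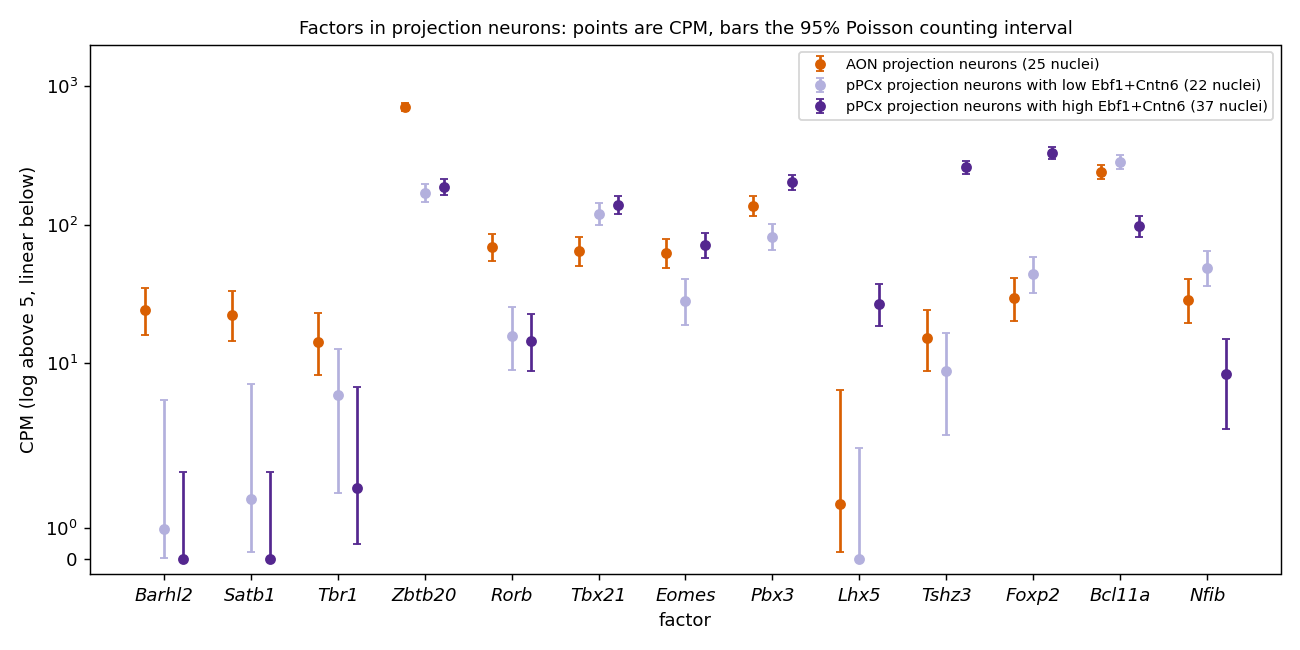
CPM of selected factors in AON projection neurons and in pPCx projection neurons with high or low *Ebf1* plus *Cntn6*, with 95% Poisson counting intervals as bars. The vertical axis is logarithmic above 5 CPM and linear below. *Tshz3* and *Foxp2* are at 260.1 and 331 CPM in the high group, against 8.78 and 43.9 CPM in the low group.

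The pPCx projection neurons fell into groups of 37 nuclei with high and 22 with low *Ebf1* plus *Cntn6* (a cell adhesion gene), split at 500 CPM, with the highest low nucleus at 100.4 CPM, the lowest high nucleus at 1433 CPM and 0 nuclei within 2-fold of the split. The split was chosen with values of these nuclei known, so differences between the groups are given as a description. Of 21 factors compared within this library, 6 were past 2-fold higher in the high group (12.4% of 12331 genes) and 3 past 2-fold higher in the low group (6.83%), against 19.2% of genes either way.

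*Tshz3* was at 260.1 CPM (233 to 289) in the high group and 8.78 CPM (4.02 to 16.7) in the low group, 29.6-fold (15.4 to 65.3), and was in 35 of 37 and 7 of 22 nuclei. *Foxp2* was at 331 CPM (300.2 to 363) and 43.9 CPM (32.0 to 58.8), 7.53-fold (5.53 to 10.5). All 35 UMIs of *Lhx5* were in 19 nuclei of the high group, 26.9 CPM (18.7 to 37.3), at least 9.17-fold over the low group. *Foxp2* and *Tshz3* were found together in 34 of 37 high and 6 of 22 low nuclei. *Foxp2* was in 36 high and 20 low nuclei, and *Tshz3* in 35 and 7. Whether the overlaps differ from what these shares give was not tested. The 3 factors that were higher in the pPCx library and not in the class rule were thus all concentrated in the high group.

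*Pbx3* was at 203 CPM in the high and 82.0 CPM in the low group, 2.47-fold (1.93 to 3.20), and *Eomes* at 71.3 and 28.3 CPM, 2.52-fold (1.65 to 3.97). *Etv1* was 2.20-fold higher (0.749 to 7.81), within counting error, with 64.3% of its 14 UMIs in 1 nucleus. The low group had more *Bcl11a*, 284 against 97.4 CPM or 2.91-fold (2.36 to 3.62), more *Nfib*, 48.8 against 8.44 CPM or 5.78-fold (2.97 to 12.3), and more *Emx1*, 10 UMIs against 1 or 12.7-fold (1.81 to 552). *Tbx21* at 139 and 120.0 CPM, *Tshz2* at 1807 and 1881 CPM and *Zbtb20* at 188 and 171 CPM were within 2-fold. The astrocyte marker list was at 296 CPM in the high and 91.7 CPM in the low group, while *Nfib* was higher in the low group. Whether glial RNA had a part in these differences was not tested.

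Set against the 22 low nuclei alone, a comparison chosen after seeing the data, AON projection neurons had 11 of 24 factors past 2-fold higher (10.3% of 11768 genes) and 0 past 2-fold lower (8%). *Zbtb20* was 4.17-fold (3.53 to 4.94), *Rorb* 4.41-fold (2.55 to 8.10), *Satb1* 11.5-fold (2.86 to 99.9) and *Eomes* 2.21-fold (1.42 to 3.54) higher in AON projection neurons. Among the 11, the intervals of *Tbr1* (0.909 to 7.63), *Etv1* (0.951 to 9.68) and *Zfp536* (0.967 to 6.02) included 1. The 3 AON nuclei rich in glial markers held 71.1% of the AON projection neuron UMIs of *Nfia* and 70% of *Nr2f2*. They also held 53.3% of *Etv1*, 50% of *Meis2* and 28.6% of *Rorb*. The AON set also kept 3 nuclei with at least 10 *Ebf1* UMIs, described below. These held 19 of its 20 UMIs of *Zfp536* and 10 of its 16 of *Tbr1*. In the other 22 AON nuclei *Zfp536* was at 1.06 CPM and *Tbr1* at 6.34 CPM, against 7.81 and 5.85 CPM in the low pPCx nuclei. The part of either set of 3 nuclei in the count of 11 was not tested. *Foxp2* and *Tshz3* were within 2-fold, with log2 ratios of -0.57 and 0.76.

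In the AON library 3 projection neurons held at least 10 *Ebf1* UMIs, chosen after their values were seen. With 15.3% of the UMIs of their class they held all 6 UMIs of *Lhx1*, both of *Lhx5*, both of *Uncx*, 96 of 153 of *Pbx3*, 10 of 16 of *Tbr1* and 19 of 20 of *Zfp536*, and 0 of 27 of *Barhl2*. *Lhx1*, in 2 of these nuclei, and *Lhx5*, in 1, were thus not found together with *Barhl2*, which was in 8 of 25. These nuclei are too few to tell whether the factors exclude each other, and LIM factors outside the 39 were not examined in them.

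Of the 43 paralogues, 20 could be compared between AON projection neurons and GABAergic nuclei, and 5 were past 2-fold higher in projection neurons and 8 in GABAergic nuclei. *Lhx2*, a LIM factor like *Lhx1* and *Lhx5*, was at 26.8 against 1.57 CPM, 17.1-fold (4.33 to 147) higher in projection neurons. *Sp9*, at 26.0 against 2.68 CPM, was higher in GABAergic nuclei, as *Sp8* was. Of the 15 network factors, 3 were past 2-fold higher in projection neurons and 5 in GABAergic nuclei. *Cux2*, a cut-like homeodomain factor of upper cortical layers, was at 536 against 41.7 CPM, 12.9-fold (9.70 to 17.4) higher in projection neurons, and in pPCx projection neurons it was at 107 CPM.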

How the data were processed

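Nuclei of mouse olfactory bulb were measured in 2 libraries, AON and pPCx, 1 per injection site, grouped by the labels. The authors deposited filtered count matrices of UMIs per gene and barcode, whose header names Cell Ranger 3.1.0. The processing notes list human genome builds only, and the mouse build is not given in the sources used here. Of 31055 features, 31011 (99.9%) matched GENCODE M21 identifiers on GRCm38, so that build was inferred from the identifiers and gene positions were taken from it. Of the 39 factors, 17 overlap a gene on the opposite strand and 1 (*Foxp1*, with *Gm20696*) a gene on the same strand, and reads of such pairs may not be told apart.

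Nuclei with at least 1000 genes were classed by marker sums and their counts summed per class. The highest mitochondrial share was 0.93% in the AON and 0.512% in the pPCx library. No doublet caller was run, and at least 3 UMIs of both marker sums were found in 4 AON projection neurons, 1 AON GABAergic nucleus and 4 pPCx projection neurons. Of the projection neurons, 8 in the AON and 1 in the pPCx library held under 3 excitatory marker UMIs. Library totals were 2963064 and 2412067 UMIs before filtering. Nuclei were thinned to 5000 UMIs for shares. Sums carry exact Poisson intervals and ratios exact conditional intervals (95%), which cover counting error only. Python 3.11.15, numpy 2.4.6, scipy 1.17.1 and matplotlib 3.10.9 were used, and the scripts were tested on simulated data.

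All 39 factors were named by family, with intervals for many of those past 2-fold. The share of UMIs in the deepest nucleus was given where it was over 25% and a result in the text turned on it. At most 3 other factors were named per comparison. The factors, the lists and the split by *Ebf1* plus *Cntn6* were chosen with earlier results of these data known. Alternatives changed the class rule, the minimum of genes, UMIs and marker UMIs, the added count, the weighting of nuclei, the thinning and the split, and left out nuclei over 3 times the median depth of their class.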

Additional observations from a re-analysis of the deposited data

Results flagged for a closer look

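Barcodes under 1000 genes were left out of every comparison, and some held UMIs of the factors above the 3 that a count of 0 allows. In the 86 such barcodes of the AON library these were *Tshz2* with 66 UMIs in 10 barcodes, *Zbtb20* with 36 UMIs, *Meis2* with 30, *Foxp1* with 20, *Nfia* with 16, *Pbx3* and *Bcl11a* with 9 each, *Tshz1* and *Nfib* with 8 each, *Eomes* with 5 and *Dlx1* with 4. In the 11 such barcodes of the pPCx library it was *Meis2*, with 37 UMIs in 2 barcodes.

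The sign of the *Foxp4* ratio differed between the libraries, on few UMIs. The log2 ratio of projection neurons over GABAergic nuclei was 1.01 for AON and -1.86 for pPCx, where the GABAergic value was 3 UMIs in 1 of 2 nuclei. As a ratio, the AON interval (0.707 to 6.87) included 1. Set against the AON GABAergic nuclei instead, *Foxp4* was 3.37-fold (1.41 to 9.76) higher in pPCx projection neurons. The difference between the libraries was not tested.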

How the results depend on the processing

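No paired analysis was possible because each injection site had 1 library and no result came from a test. Of 1759 ratios of single factors under the alternatives, 1638 moved by less than their counting interval, 116 moved further and 5 changed direction. Of 1188 values for the 115 ratios past 2-fold, 1151 stayed past 2-fold in the same direction. The 5 reversals were log2 ratios of *Foxp4* (-0.91 with nuclei weighted equally) and *Nfia* (-0.47 with at least 3 excitatory UMIs, -0.51 without the 3 nuclei rich in glial markers) for AON projection neurons over GABAergic nuclei, *Nr2f2* (-2.06 with at least 3 excitatory UMIs) for AON projection neurons over remaining nuclei, and *Tshz3* (0.76 against low pPCx nuclei only) for AON over pPCx projection neurons. The set without glial nuclei and the low pPCx set were chosen after seeing the data. Of 168 counts, 147 stayed within 1.5 times or, for nuclei per class, within the interval of the class share. With at least 50 UMIs, 5 of 20 factors were higher in AON projection neurons and 10 of 20 in GABAergic nuclei. The count was 4 of 20 in pPCx projection neurons over AON GABAergic nuclei and 4 of 16 in AON over pPCx projection neurons. It was 5 of 19 in AON projection neurons over remaining nuclei. With at least 1 UMI, AON projection neurons had 15 of 39 over GABAergic nuclei, 19 of 38 over pPCx projection neurons and 13 of 39 over remaining nuclei. The high and low *Ebf1* plus *Cntn6* groups had 12 and 8 of 34, the low count being 6 of 21 with equal weights. Shares over all genes at these minimums are not given. Against low nuclei only, 0 factors were higher in pPCx projection neurons. The UMI minimum sets how many factors are compared, and for the others the cause was not tested. Without a minimum of genes there were 48 AON projection neuron (from 25, with a like share), 51 AON GABAergic, 89 AON remaining, 61 pPCx projection neuron and 11 pPCx remaining barcodes. Factors in at least 50% of nuclei numbered 10, 11, 11 and 9 without thinning (AON and pPCx projection neurons, AON GABAergic and remaining nuclei), and 8 in pPCx projection neurons at 10000 UMIs, against 3, 3, 6 and 5 at 5000. *Uncx*, *Vgll2* and *Neurod6* had too few UMIs in all 6 comparisons, so a difference in them was not detectable at this depth.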

Other observations

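Between AON and pPCx projection neurons, 5 of the 11 network factors that could be compared were past 2-fold higher in AON projection neurons and 0 past 2-fold lower. *Cux2* was at 536 against 107 CPM, 5.01-fold (4.32 to 5.83), *Rcor1*, a corepressor of neuronal genes, at 169 against 47.2 CPM, 3.58-fold (2.82 to 4.57), and *Hlf*, a PAR leucine zipper factor, at 82.3 against 27.1 CPM. Of 20 paralogues, 4 were past 2-fold higher in AON projection neurons (*Vgll4*, *Etv4*, *Etv5* and *Zfp521*). Within the pPCx library, *Hlf* and *Ppargc1a*, a coactivator of mitochondrial genes, were 12.1-fold and 6.74-fold higher in the group with low *Ebf1* plus *Cntn6*.

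*Nfix*, a relative of *Nfia* and *Nfib*, was at 169 CPM in the AON remaining nuclei and 4.47 CPM in AON projection neurons. *Esrrg*, an orphan nuclear receptor, was at 555 CPM in AON GABAergic nuclei and 14.6 CPM in the remaining nuclei.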
